A study of Danio rerio with 5 samples.

Results

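This account follows 8 genes of red blood cell formation in the kidneys of adult zebrafish (Danio rerio), out of 32520 gene IDs counted. The members were chosen by name, with earlier results of these data known. Of them, 4 act early in erythroid differentiation (EPOR, klf1, nfe2 and tfr1a). The other 4 are genes of the red-cell membrane that are made in quantity late in that process (slc4a1a, epb41b, sptb and ank1a). Of the 8 names, 6 matched exactly 1 gene ID. The gene table holds neither slc4a1a nor ank1a, but lists 2 IDs under SLC4A1 and 2 under ANK1. The ID with more counts stands for each, a choice made after the counts were seen, and which copy it is was not stated. The other SLC4A1 ID had 0 and 13 counts in the null libraries and 0, 2 and 0 in the wild-type libraries. The other ANK1 ID had 52 and 63 counts in the null libraries and 69, 63 and 56 in the wild-type libraries. All 8 members passed the filter on low counts.

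Whole kidneys were sequenced as bulk RNA from 2 groups of siblings of the EK strain. The runx1 null group, homozygous for the del8 (hg96) allele of runx1, held 2 libraries, numbered 5 and 6. Wild type was represented by 3 libraries, with the numbers 1, 2 and 3. Each library pooled 3 kidneys of fish about 2.5 months old, so single fish cannot be told apart and p-values measure the spread between pools. The null is a germline mutation present in every cell, so a difference in red cells and one in other tissues of the same fish are measured together.

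Adult zebrafish form their blood in the marrow of the kidney, and their red cells keep their nucleus. Erythropoietin binds its receptor on young erythroid cells and signals through the kinase Jak2, and a group of transcription factors, Klf1 and Nfe2 among them, then turns on the genes of the red cell. The cell takes up iron through a transferrin receptor to make heme. Later it builds a membrane skeleton in which spectrin is tied to the anion exchanger band 3 by ankyrin, and to actin by protein 4.1. Runx1 is a transcription factor that acts in blood stem cells.

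Counts assigned to genes lay between 27631376 and 33752278 per library. Levels are given in CPM, counts brought to a common library size with TMM factors, and 3 counts correspond to between 0.0876 and 0.113 CPM. Members had at least 420 counts in a library, so that counting alone adds a relative error of at most 4.88% to a value. Levels of different genes are not compared with each other here, as CPM is not divided by transcript length. The libraries held nephron RNA in unequal amounts, with 8 nephron markers summing to 2538 and 305 CPM in null 5 and 6 and to 438, 485 and 53.9 CPM in wild type 1, 2 and 3. They also held ovary RNA, with 10 ovary markers summing to 14.9 and 8176 CPM in null 5 and 6 and to 19.8, 1324 and 9.71 CPM in wild type 1, 2 and 3. Null 6 and wild type 2 therefore stood apart from the other libraries, and null 6 was also lowest for all 8 members. Fold changes of the members, and some counts and medians of the gene lists, are therefore also given without null 6. Values of the lists without a library were added after seeing the data.

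In both null libraries the early genes lay below every wild-type library, while the membrane genes divided into a pair that was also lower in both and a pair that overlapped. Genotypes were compared with the quasi-likelihood test of edgeR at an adjusted p of 0.05, which 0 of the 8 members and 0% of the 20386 tested genes passed. At an unadjusted p under 0.05 that test held 890 genes, 4.37%, and 0 members. The DESeq2 Wald test called 81 of 18985 genes, 0.427%, none of them a member. The null libraries were both under every wild-type value for 6 of the 8 members, against 14.8% of all tested genes. For the early genes the count was 4 of 4, and for the membrane genes 2 of 4. As log2 fold change of null over wild type, the median was -1.60 for the 4 early genes and -1.18 for the 4 membrane genes, beside 0.24 for all tested genes. Except for SLC4A1, each member kept a negative log2 fold change under the 5 other scalings of the libraries that were run. In bulk kidney RNA, fewer erythroid cells, less of these transcripts per cell and more RNA of other tissue beside them cannot be told apart.

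EPOR (ENSDARG00000090834) encodes the erythropoietin receptor. It stood at 165 and 30.3 CPM in null 5 and 6, against 239, 334 and 456 CPM in wild type 1, 2 and 3. Both null values were below the lowest wild-type value, and null 6 was the far lower of the pair. Its log2 fold change was -1.81 (SE 0.82, edgeR adjusted p = 0.612), the most negative fold change of the 8, and -1.015 without null 6. In the DESeq2 Wald test EPOR had an unadjusted p = 0.0299, and 10.0% of all genes tested there had an unadjusted p under 0.05.

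The transcription factor klf1 (ENSDARG00000017400), which in mammals activates the adult beta-globin gene and many other red-cell genes, stood at 251 and 37.6 CPM in null 5 and 6, against 479, 329 and 527 CPM in wild type 1, 2 and 3. The groups did not overlap, and wild type 2 came nearest to the null values. For klf1 the log2 fold change was -1.63 (SE 0.86, edgeR adjusted p = 0.612), and -0.79 without null 6.

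The gene nfe2 is listed as NFE2 (ENSDARG00000020606). It encodes a leucine zipper protein that in mammals pairs with small Maf proteins and serves both red cells and platelet-forming megakaryocytes. It stood at 89.6 and 12.3 CPM in null 5 and 6, against 172, 110 and 173 CPM in wild type 1, 2 and 3. Its profile was nearly that of klf1: with log2 CPM centred over the 5 libraries, the root mean square difference between klf1 and NFE2 was 0.06, the smallest among the 28 pairs of members. NFE2 had a log2 fold change of -1.58 (SE 0.87, edgeR adjusted p = 0.612), and -0.72 without null 6.

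The transferrin receptor gene tfr1a (ENSDARG00000101322), which serves iron uptake and is not itself a regulator, stood at 607 and 104 CPM in null 5 and 6, against 863, 724 and 932 CPM in wild type 1, 2 and 3. The wild-type pools differed by 1.29-fold at most, the narrowest wild-type range of the members. The groups did not overlap, though null 5 lay close to wild type 2. For tfr1a the log2 fold change was -1.24 (SE 0.80, edgeR adjusted p = 0.612), and -0.43 without null 6. The paralog tfr1b (ENSDARG00000077372) was above every wild-type value in both null libraries, at 94.2 and 144 CPM in null 5 and 6, against 90.0, 68.0 and 41.0 CPM in wild type 1, 2 and 3. The same held for 11.1% of tested genes. With TMM scaling the log2 fold change of tfr1b was 0.84 (SE 0.48, edgeR adjusted p = 0.612). With scaling to nephron markers its sign was negative, as was that of the median of all tested genes, at -3.06.

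**Figure D1:**
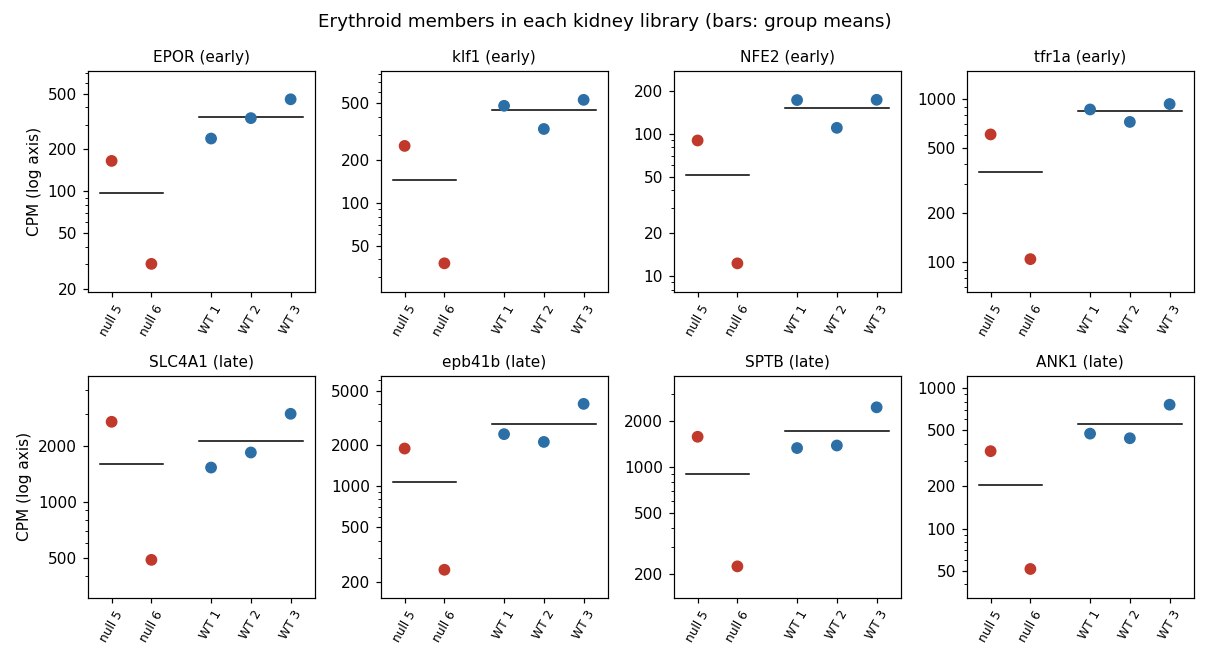
CPM (log axis, a scale per panel) of each of the 8 members in the 5 kidney libraries, null libraries in red on the left and wild-type libraries in blue on the right, with points for libraries and bars for group means. Null 6 is lowest in every panel, and null 5 lies below all wild-type libraries except for SLC4A1 and SPTB.

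Among the membrane genes, SLC4A1 (ENSDARG00000012881) encodes the anion exchanger band 3, the anchor of the membrane skeleton. It stood at 2710 and 487 CPM in null 5 and 6, against 1534, 1850 and 2993 CPM in wild type 1, 2 and 3. Null 5 was thus above wild type 1 and 2, and null 6 below all wild-type libraries. SLC4A1 had a log2 fold change of -0.41 (SE 0.83, edgeR adjusted p = 0.832), and it was positive, 0.39, without null 6 and 0.245 with libraries scaled to other erythroid genes.

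The beta-spectrin gene sptb, listed as SPTB (ENSDARG00000030490), stood at 1578 and 225 CPM in null 5 and 6, against 1332, 1384 and 2456 CPM in wild type 1, 2 and 3. Null 5 again lay within the wild-type range. SPTB had a log2 fold change of -0.94 (SE 0.90, edgeR adjusted p = 0.660), and -0.09 without null 6.

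The gene epb41b (ENSDARG00000029019), for protein 4.1, stood at 1889 and 245 CPM in null 5 and 6, against 2407, 2111 and 4010 CPM in wild type 1, 2 and 3. The ankyrin gene ANK1 (ENSDARG00000059093), whose product ties spectrin to band 3, stood at 355 and 51.5 CPM in null 5 and 6, against 474, 439 and 761 CPM in wild type 1, 2 and 3. For both genes each null library was below all wild-type libraries. The log2 fold change was -1.41 for epb41b (SE 0.95) and -1.46 for ANK1 (SE 0.88), and edgeR gave both an adjusted p = 0.612. Without null 6 the values were -0.55 for epb41b and -0.61 for ANK1.

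The profiles of the 8 members did not fall apart at the line between early and late. By root mean square difference of centred log2 CPM over the 5 libraries, epb41b was nearest to ANK1, at 0.07, and both were nearer to klf1, at 0.22 and 0.20, than to SLC4A1, at 0.61 and 0.59. SLC4A1 was nearest to SPTB, at 0.34, and farthest from NFE2, at 0.75, the largest of the 28 differences. SPTB itself was nearer to ANK1, at 0.27, to epb41b, at 0.28, and to the early gene tfr1a, at 0.29, than to SLC4A1. These are descriptions of 5 libraries, and the low values of null 6 are part of each of them.

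**Figure D2:**
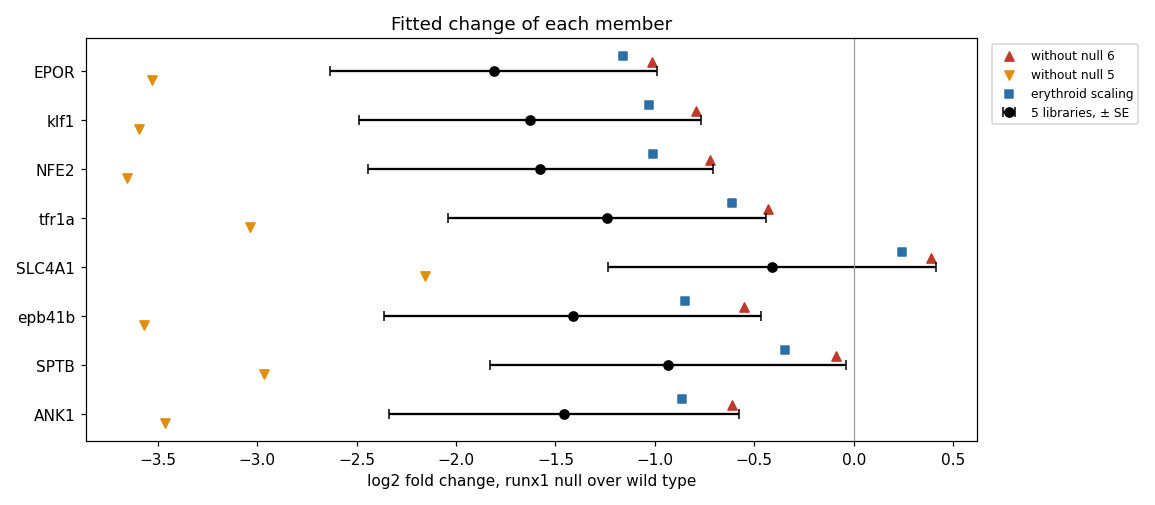
Log2 fold change, null over wild type, of each member: black points with bars are the edgeR estimate over 5 libraries ± its standard error, and coloured symbols are the estimates without null 6, without null 5, and with libraries scaled to other erythroid genes. SLC4A1 lies nearest to 0 over 5 libraries and is positive without null 6, at 0.39, and with erythroid scaling, at 0.245.

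The size of the difference rested on the null library taken. In null 5, EPOR was at 0.482, klf1 at 0.563, NFE2 at 0.590 and tfr1a at 0.723 of the wild-type mean CPM. The membrane genes in null 5 were at 0.637 of that mean for ANK1, 0.665 for epb41b, 0.915 for SPTB and 1.27 for SLC4A1. In null 6 every member stood lower still, between 0.0808 of the wild-type mean for NFE2 and 0.229 for SLC4A1. Without null 6 the median log2 fold change was -0.76 for the early genes and -0.32 for the membrane genes, and without null 5 it was -3.56 for the early and -3.21 for the membrane genes, with the lone null library assumed to vary like the wild-type group. Null 5 alone lay below all wild-type libraries for 6 of 8 members and for 30.0% of all tested genes, and null 6 alone for 8 of 8 members and 38.3% of all tested genes.

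Values were also taken between libraries of like ovary content. Between null 6 and wild type 2, which both held ovary markers, log2 CPM differed by -3.46 for EPOR, -3.13 for klf1, -3.16 for NFE2 and -2.79 for tfr1a. The same difference for the membrane genes was -3.11 for epb41b, -3.09 for ANK1, -2.62 for SPTB and -1.93 for SLC4A1. Null 5 was set against wild type 1 and 3 by their mean, and here the difference was -0.998 for EPOR, -1.004 for klf1, -0.95 for NFE2 and -0.56 for tfr1a. There the membrane genes differed by -0.76 for ANK1, -0.72 for epb41b, -0.20 for SPTB and 0.34 for SLC4A1. The median over all tested genes was 0.04 in the first comparison and 0.06 in the second. For the 6 members whose groups did not overlap, the direction on both sides was fixed by that. Null 6 was below every wild-type library for SLC4A1 and SPTB too, so for these genes only the direction of null 5 was open. Ovary markers summed to 6.17 times as much in null 6 as in wild type 2, and the part of that in the lower values of null 6 was not tested. Null 5 was not matched to wild type 1 and 3 in other tissue. Nephron markers summed to 2538 CPM in null 5, against 438 and 53.9 CPM, and liver markers to 35410 CPM, against 20860 and 1242 CPM. The part of these in the differences of null 5 was not tested.

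The early and late genes were then set against each other within each library, a comparison that the scaling of libraries barely touches. The 4 membrane genes together had 5.87 and 5.46 reads for each read of the 4 early genes in null 5 and 6, against 3.28, 3.86 and 4.89 in wild type 1, 2 and 3. Both null values were above all wild-type values, and null 5 and 6 differed by more than 5-fold in the level of every member. As a difference of mean log2 CPM, late minus early, this was 2.58 and 2.47 in null 5 and 6, against 1.77, 2.02 and 2.29 in wild type 1, 2 and 3. The null mean of 2.52 ± 0.08 (SD, n = 2) exceeded the wild-type mean of 2.03 ± 0.26 (SD, n = 3) by 0.495. Such a separation was common. Relative to the early mean, 65.0% of all other tested genes were above every wild-type library in both null libraries. That share is for single genes, and none was computed for sets of 4. An exact permutation test of 2 against 3 libraries cannot give a two-sided p-value under 0.1, and none was taken of a score over chosen genes.

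SLC4A1 and SPTB carried this difference. Relative to the mean log2 CPM of the early genes, SLC4A1 stood at 3.64 and 3.80 in null 5 and 6, against 2.09, 2.60 and 2.75 in wild type 1, 2 and 3. SPTB stood at 2.86 and 2.69 in null 5 and 6, against 1.88, 2.18 and 2.47 in wild type 1, 2 and 3. The groups did not overlap for either gene. For epb41b the relative value was 3.12 and 2.81 in the null libraries and 2.74, 2.79 and 3.18 in the wild-type libraries, and for ANK1 it was 0.71 and 0.57 in the null libraries and 0.39, 0.52 and 0.78 in the wild-type libraries. These overlapped. Both null libraries were above all wild-type libraries in this measure for 65.0% of all other tested genes, so 2 of 4 is no more than the background, in which most genes are not erythroid. In single pairs, SLC4A1 had 16.4 and 16.1 reads per EPOR read in null 5 and 6, against 6.43, 5.54 and 6.57 in wild type 1, 2 and 3. It had 10.8 and 12.9 reads per klf1 read in null 5 and 6, against 3.20, 5.62 and 5.68 in wild type 1, 2 and 3. Of the 16 pairs of a late with an early gene, 7 were above every wild-type value in both null libraries, beside 60.5% of the pairs of any tested gene with an early gene. The other 9 pairs overlapped, among them 8 with epb41b or ANK1 and that of SPTB with tfr1a.

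**Figure D3:**
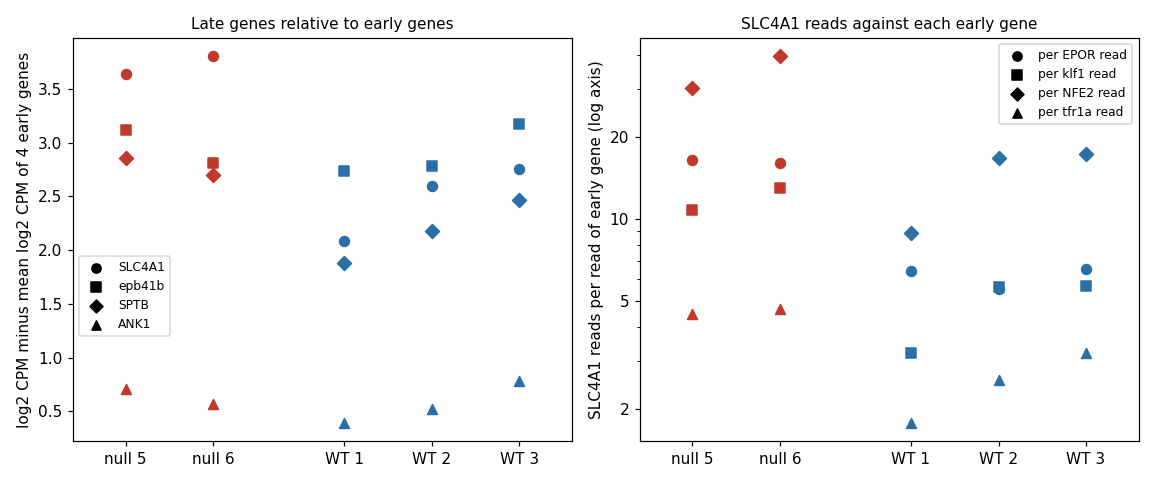
Left, log2 CPM of each membrane gene minus the mean log2 CPM of the 4 early genes, per library; right, SLC4A1 reads per read of each early gene (log axis), null libraries in red and wild-type libraries in blue. SLC4A1 and SPTB are higher relative to the early genes in both null libraries, while epb41b and ANK1 overlap. In the left measure, 65.0% of all other tested genes are above every wild-type library in both null libraries.

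Of 20 further erythroid regulators listed, 14 matched 1 gene ID and all 14 were tested. At an adjusted p of 0.05, edgeR and DESeq2 called 0 of them higher and 0 lower. The log2 fold change was negative for 13 of the 14, KLF3 being the exception, beside 41.8% of all tested genes. With libraries scaled to erythroid genes it was negative for 7 of the 13 that did not set that scaling, beside 14.9% of all tested genes. Both null values were under every wild-type value for 8 of the 14, beside 14.8% of all tested genes, and the median log2 fold change was -1.19. Among these 8, stat5a was lower only narrowly, at 10.96 CPM in null 5 against 11.07 CPM in wild type 3. Without null 6 the log2 fold change was negative for 12 of the 14, with a median of -0.59. There null 5 lay under every wild-type value for 8 of the 14, beside 27.6% of the genes tested there. Without wild type 2 both null values were under the other wild-type values for 9 of the 14, beside 22.4% of the genes tested there. The kinase gene jak2a (ENSDARG00000104808), which acts directly below the erythropoietin receptor, stood at 516 and 104 CPM in null 5 and 6, against 856, 785 and 1493 CPM in wild type 1, 2 and 3. ZFPM1 (ENSDARG00000041572), for the GATA1 partner Fog1, stood at 63.7 and 23.9 CPM in null 5 and 6, against 98.1, 80.5 and 130 CPM in wild type 1, 2 and 3. The log2 fold change was -1.75 for jak2a (SE 0.82) and -1.23 for ZFPM1 (SE 0.56), each with an edgeR adjusted p = 0.612. It was -0.95 for stat5b, a transcription factor below Jak2, and -1.67 for bcl11ab, which had at most 20 counts in a library. Relative to the mean of the early members, 3 of the 14 were above every wild-type value in both null libraries, and 11 overlapped. Of all other tested genes, 65.0% were above in that measure.

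Of 20 further genes of the red-cell membrane and of iron handling, 15 matched and were tested. At an adjusted p of 0.05, edgeR and DESeq2 called 0 of them. All 15 had a negative log2 fold change with TMM scaling, with GYPC nearest to 0, beside 41.8% of all tested genes. RHAG and SLC25A37 of this list are among the 6 genes of the erythroid scaling, and of the other 13 that scaling left 6 negative, beside 14.9% of all tested genes. Both null values were under every wild-type value for 4 of the 15, beside 14.8% of all tested genes, and the median log2 fold change was -0.98. Without null 6 the log2 fold change was negative for 12 of the 15, with a median of -0.25, and null 5 lay under every wild-type value for 5 of the 15, beside 27.6% of the genes tested there. Without wild type 2 both null values were under the other wild-type values for 10 of the 15, beside 22.4% of the genes tested there. The beta-adducin gene add2 (ENSDARG00000074581), whose product caps actin in the membrane skeleton, stood at 492 and 61.4 CPM in null 5 and 6, against 912, 726 and 1314 CPM in wild type 1, 2 and 3. RHAG (ENSDARG00000019253), an Rh-complex membrane protein, stood at 897 and 131 CPM in null 5 and 6, against 1089, 1256 and 1913 CPM in wild type 1, 2 and 3. The log2 fold change was -1.83 for add2 (SE 0.94) and -1.47 for RHAG (SE 0.89), each with an edgeR adjusted p = 0.612. It was -0.98 for the mechanosensitive channel gene PIEZO1, whose groups overlapped, and -0.66 for the iron transporter gene slc11a2. The groups of slc11a2 were apart only narrowly, at 64.3 CPM in null 5 against 65.7 CPM in wild type 2. Relative to the mean of the early members, 9 of the 15 were above every wild-type value in both null libraries, beside 65.0% of all other tested genes, 5 overlapped, and add2 was below, as were 0.422% of those genes.

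Of 8 paralogs of members listed, 3 matched and were tested, tfr1b among them. The Krüppel-like factor genes klf2a and klf2b overlapped between the groups, with log2 fold changes of -0.41 for klf2a and -0.73 for klf2b. With erythroid scaling klf2a was positive, with scaling to nephron markers all 3 were negative, and without null 6 all 3 were positive. The median of all tested genes was itself 1.44 with erythroid scaling and -3.06 with nephron scaling. As reads with more than 1 alignment were counted apart, a member with a near-identical copy may be undercounted.

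Of 13 genes of hemoglobin and heme synthesis listed, 10 matched 1 gene ID and all 10 were tested. The beta-globin names hbba1 and hbba2 matched no ID, so the list holds neither. At an adjusted p of 0.05, edgeR called 0 of the 10. With TMM scaling 2 of the 10 were below and 3 above every wild-type value in both null libraries, beside 14.8% of all tested genes below and 11.1% above. Without null 6, null 5 was below for 3 and above for 5, beside 27.6% and 32.2% of the genes tested there. Without wild type 2, both null libraries were below for 2 and above for 3, beside 22.4% and 22.9% of the genes tested there. With TMM scaling the median log2 fold change of the 10 was 0.07, and 0.15 without null 6. The genes below were alas2 and uros, and those above were CPOX, UROD and PPOX. For PPOX the gap was narrow, with 21.8 CPM in null 6 against 21.6 CPM in wild type 1. UROD stood at 27.2 CPM in null 6, against 25.1 CPM in wild type 2. With upper quartile scaling PPOX was negative, and the median of the 10 was -0.12, beside 0.07 for all tested genes. The list thus had no common direction. The adult alpha-globin gene hbaa1 (ENSDARG00000097011) was among those that overlapped, as SLC4A1 did. It stood at 29490 and 3960 CPM in null 5 and 6, against 22760, 21690 and 40070 CPM in wild type 1, 2 and 3. For hbaa2, another alpha-globin gene, null 5 was above and null 6 below every wild-type library. Its values were 2175 and 516 CPM in null 5 and 6, against 773, 988 and 1753 CPM in wild type. The log2 fold change was -0.75 for hbaa1 and 0.20 for hbaa2. Relative to the mean of the early members, 8 of the 10 were above every wild-type value in both null libraries. The same held for 65.0% of all other tested genes.

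The genes with profiles most like the members were sought among 10070 other tested genes with a mean of at least 10 CPM, by root mean square difference of centred log2 CPM over the 5 libraries. Nearest to the mean of the early genes were TAL1, GSDME, jak3, SLC45A4 and wbp4, at between 0.07 and 0.08. TAL1 (ENSDARG00000019930), a transcription factor of blood progenitors and red cells, stood at 203 and 31.4 CPM in null 5 and 6, against 368, 270 and 408 CPM in wild type 1, 2 and 3. Nearest to the mean of the membrane genes were PPP1R14B, dnajb2 and 3 genes listed under clone names, at between 0.05 and 0.07. PPP1R14B (ENSDARG00000030161) stood at 121 and 18.6 CPM in null 5 and 6, against 104, 109 and 194 CPM in wild type 1, 2 and 3.

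Markers of other cells differed in whether they followed the members across libraries. Thrombocytes, the clotting cells of fish, were marked by 6 genes that summed to 421 and 111 CPM in null 5 and 6, against 1028, 817 and 1305 CPM in wild type 1, 2 and 3, and 5 of the 6 were lower in both null libraries, beside 14.8% of all tested genes. Their median log2 fold change was -2.03, and -1.34 without null 6. There null 5 was below every wild-type value for 5 of the 6, beside 27.6% of the genes tested there. Relative to the mean of the early members, 0 of the 6 were above every wild-type value in both null libraries. In that measure 2 were below and 4 overlapped, beside 65.0% of all other tested genes above and 0.422% below. The integrin gene itga2b (ENSDARG00000018687) stood at 32.9 and 9.69 CPM in null 5 and 6, against 316, 260 and 387 CPM in wild type 1, 2 and 3. At an adjusted p of 0.05 the DESeq2 Wald test called 1 of the 6 thrombocyte markers, beside 0.427% of all genes tested there, and edgeR called 0. None of the 6 was at 0 in every library, and their part in the values of NFE2, which both lineages express in mammals, was not tested. Skeletal muscle, which makes its own spectrin and ankyrin transcripts, was marked by 3 genes that summed to 48.3 and 65.7 CPM in null 5 and 6, against 49.7, 10.7 and 62.4 CPM in wild type 1, 2 and 3. Proliferation markers, 7 genes, summed to 194 and 1937 CPM in null 5 and 6, against 269, 511 and 112 CPM in wild type 1, 2 and 3. They were highest in null 6, where the members were lowest, and next highest in wild type 2. These are the libraries that were high in ovary markers, and the part of ovary RNA in the proliferation markers was not tested. The median log2 fold change of the proliferation markers was 1.79, and -0.76 without null 6. Nephron markers were highest in null 5, and with their mean log2 CPM as a covariate the median log2 fold change was -2.24 for the early genes and -1.50 for the membrane genes. With the ovary score as a covariate these medians were -1.62 and -1.23. Median log2 fold changes of the remaining marker lists were -3.09 for B cells, -2.03 for neutrophils, -1.20 for macrophages, 0.23 for liver and -0.71 for the interrenal gland. Without null 6 they were -2.49 for B cells, -1.17 for neutrophils, -0.53 for macrophages, 0.18 for liver and -0.27 for the interrenal gland. Over 5 libraries, both null values were under every wild-type value for 6 of 6 B-cell markers, beside 14.8% of all tested genes. The same count was 0 of 4 for neutrophils, 2 of 5 for macrophages, 0 of 7 for liver and 0 of 4 for the interrenal gland. Of the B-cell markers, ighm entered the count narrowly, at 10.28 CPM in null 5 against 10.39 CPM in wild type 3. At an adjusted p of 0.05 the DESeq2 Wald test called 2 of the 6 B-cell markers, beside 0.427% of all genes tested there, and edgeR called 0. Liver and interrenal markers were also unequal between libraries. Liver markers summed to 35410 and 27600 CPM in null 5 and 6, against 20860, 74360 and 1242 CPM in wild type 1, 2 and 3. Interrenal markers summed to 437 and 151 CPM in null 5 and 6, against 1445, 17.0 and 1.06 CPM in wild type 1, 2 and 3. Of these sums, CYP17A1 made 114 CPM in null 6 and 16.3 CPM in wild type 2, the libraries high in ovary markers. The part of ovary RNA in CYP17A1 was not tested. Without wild type 2, the library with the most liver RNA, the liver median was 1.73.

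**Figure D4:**
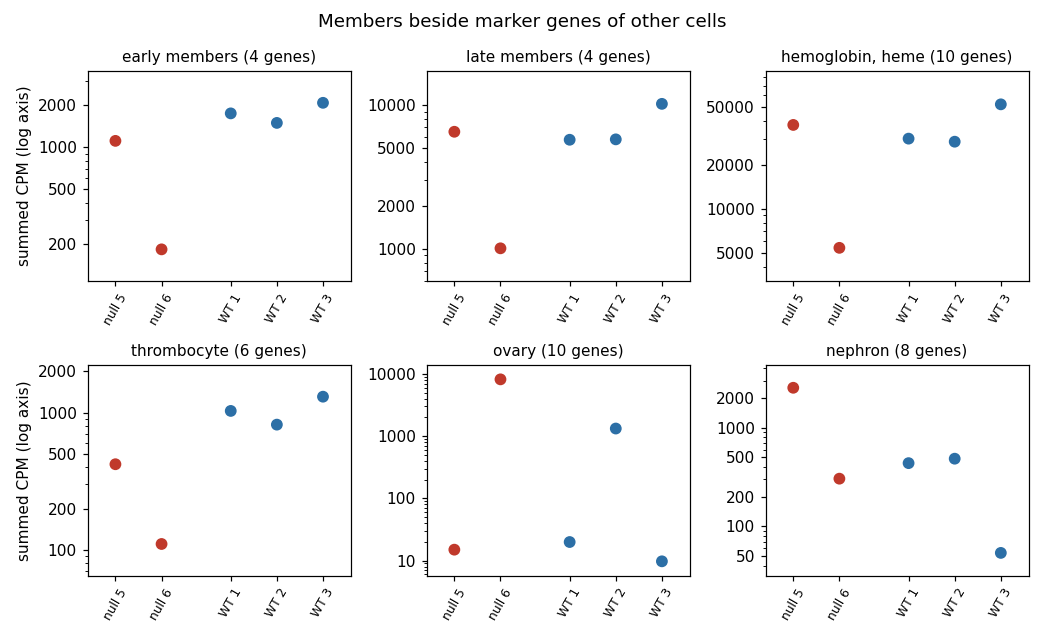
Summed CPM (log axis, a scale per panel) of the early members, the late members and 4 marker lists in each library, null libraries in red and wild-type libraries in blue. Ovary markers are high in null 6 and wild type 2, nephron markers are highest in null 5, and thrombocyte markers are lower in both null libraries.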

How the data were processed

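The authors deposited, for each library, raw read counts of every Ensembl gene ID. Per the submitters' processing notes, HISAT2 2.2.1.0, HTSeq 0.11.4, DESeq2 and the build GRCz11 were used. The annotation release and strand setting are not given in the sources used here, so counts of overlapping genes are uncertain. Per the labels' protocols, total RNA went into a paired-end TruSeq RNA v2 kit. Reads given to no gene, between 28.1% and 39.4%, were left out.

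From these counts, filterByExpr (minimum count 10, total 15) kept 20386 genes. Libraries were scaled by TMM (factors 0.920 to 1.09) and compared in edgeR 4.0.16 by quasi-likelihood (robust, two-sided), with Benjamini-Hochberg adjustment over all tested genes. The standard error (SE) is the log2 fold change over the root of F. Log2 CPM used a prior count of 2. DESeq2 1.42.0, other scalings, filters and covariates, and leaving out each library were alternatives. The code of the test was checked on simulated data, which says nothing of the spread in these pools. Software was R 4.3.3 and Python 3.11.15 with pandas 2.3.3 and, for plots, matplotlib 3.10.9.

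Groups came from the titles. The members and lists were chosen with earlier results of these data known. Named besides the members are up to 4 genes of each further pathway list, by smallest p. A defining marker is named where a list moved with a result, as are the 5 genes nearest to each mean profile. The named genes of hemoglobin and heme synthesis, KLF3, GYPC and CYP17A1 were named after their values were seen. List names that matched no gene ID, or several, were not used here.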

Additional observations from a re-analysis of the deposited data

How the results depend on the processing

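No member passed an adjusted p-value of 0.05 under any of the 16 alternatives run for each, with adjusted p-values between 0.113 and 0.986. The log2 fold changes of the members other than SLC4A1 stayed negative in all of them, and that of SLC4A1 became 0.245 with erythroid scaling and 0.39 without null 6, and lay between -2.15 and 0.39 when each library was left out. No paired analysis was possible because null and wild-type libraries have no replicate number in common. The DESeq2 Wald test called 81 genes where edgeR called 0. The medians for early and membrane genes moved to -6.28 and -6.10 with scaling to nephron markers, where the median of all genes was -3.06, and to -1.02 and -0.60 with erythroid scaling, where it was 1.44. That scaling used 6 genes, of which UROD was itself above every wild-type value in both null libraries. FECH, another of the 6, overlapped between the groups, with a log2 fold change of 0.03 under TMM scaling. The other 4 were negative there, between -1.65 for gata1a and -1.04 for SLC25A37. The part of UROD and FECH in the values with erythroid scaling was not tested. With the nephron covariate the early median was -2.24. Leaving out each library gave medians between -3.56 and -0.76 for the early genes and between -3.21 and -0.32 for the membrane genes, both ends from leaving out a null library. The late minus early difference stayed between 0.33 and 0.63 under all alternatives run for it. It was 0.33 when SLC4A1 and ANK1 were left out, an alternative chosen after seeing the data. No alternative left out both SLC4A1 and SPTB. Relative to the early mean, the null minus wild-type difference was 1.242 for SLC4A1 and 0.599 for SPTB. It was only 0.065 for epb41b and 0.073 for ANK1. With 2 null pools that differ from each other by 5.46 to 7.73 times per member, the spread between pools rather than depth limits these comparisons.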
